A study of Homo sapiens with 4 samples.

Results

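Estradiol (E2) was compared with its vehicle within each of 2 pairs of libraries from Ishikawa cells that carry the Y537S mutation of ESR1. Ishikawa is a human line from an endometrioid adenocarcinoma, and ESR1 encodes estrogen receptor alpha. Per the labels, every library came from a mutant clone kept for several days in phenol red-free medium with charcoal-stripped serum, which holds little hormone. One group of 2 libraries then received 0.1% DMSO and the other group of 2 received 10 nM E2, both for 8 h. All 4 libraries of the series were used. The column names carry a tag, A4 or B212, that joins 1 DMSO library to 1 E2 library, and the tag served as the block. Each tag is taken to stand for 1 clone, so a tag gives 1 pair and no replicate of its own. All libraries share the mutation, and no library of the unmutated parent was analysed here. The genes described are those that moved in one direction in both tags, held at least 100 counts in each of the 4 libraries and passed the test. There were 1397 of them among the 26364 gene symbols of the table.

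Estrogen receptor alpha is a transcription factor that binds DNA as a dimer, at inverted repeats of the half-site AGGTCA, and recruits coactivators once a ligand closes its binding pocket. The Y537S change places the receptor in its active shape with no ligand, so cells of this kind have receptor activity before hormone is added. Among the genes known as targets in breast and endometrial cells are PGR, the progesterone receptor, and GREB1, a cofactor of the receptor. Alkaline phosphatase activity is a common readout of estrogens in Ishikawa cells.

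The alkaline phosphatase genes are shown first, since 3 of the 4 measured members rose in both tags and since ALPI, the intestinal form, is on no list of classical targets used here. Below are their promoter windows from RefSeq (build GRCh38.p14), each 250 bases before to 50 bases after the gene's start, on the plus strand and written 5′ to 3′. Capitals mark the half-site AGGTCA, searched on both strands. ALPI lies at chr2:232455903-232456202, ALPP, the placental form, at chr2:232378501-232378800, and ALPPL2, the placental-like form that RefSeq calls ALPG, at chr2:232406594-232406893.
ALPI: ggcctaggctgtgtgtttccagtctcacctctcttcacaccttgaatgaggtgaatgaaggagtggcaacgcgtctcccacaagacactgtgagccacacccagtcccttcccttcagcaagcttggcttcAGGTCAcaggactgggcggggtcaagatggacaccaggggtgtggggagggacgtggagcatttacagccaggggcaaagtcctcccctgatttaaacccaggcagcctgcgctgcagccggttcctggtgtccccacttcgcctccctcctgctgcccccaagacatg
ALPP: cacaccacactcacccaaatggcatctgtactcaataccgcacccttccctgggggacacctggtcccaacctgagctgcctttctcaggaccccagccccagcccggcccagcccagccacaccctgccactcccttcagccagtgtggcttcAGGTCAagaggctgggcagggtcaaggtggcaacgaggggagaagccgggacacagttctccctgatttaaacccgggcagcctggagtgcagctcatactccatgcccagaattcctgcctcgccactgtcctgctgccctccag
ALPPL2: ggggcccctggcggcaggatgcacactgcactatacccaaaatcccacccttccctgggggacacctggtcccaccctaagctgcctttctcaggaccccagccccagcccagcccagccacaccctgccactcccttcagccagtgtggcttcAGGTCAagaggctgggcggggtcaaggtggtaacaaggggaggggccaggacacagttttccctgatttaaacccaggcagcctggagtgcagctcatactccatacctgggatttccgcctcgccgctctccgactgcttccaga
The half-site began 119 bases before the start in ALPI and 96 bases before it in ALPP and in ALPPL2. The same letters stood in 13.8% of all 35116 promoter windows of this length, 4857 in number. The full inverted repeat, GGTCANNNTGACC, stood in 20 windows (0.057%) and in none of these 3. Such a match is a string of letters and no measured site of binding.

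ALPI stood at 4.21 CPM (counts scaled to a common library size) with DMSO and 7.73 CPM with E2 in A4, and at 4.26 and 13.2 CPM in B212. Both E2 libraries were above both DMSO libraries. The log2 fold changes were 0.87 (A4) and 1.63 (B212), and the fit with the tag as block gave 1.27 ± 0.14 (SE; adjusted p = 3.63e-05 by edgeR). ALPP went from 20.8 to 24.9 CPM in A4 and from 8.24 to 14.5 CPM in B212, a log2 fold change of 0.52 ± 0.11 (SE; adjusted p = 0.00697). ALPPL2 went from 80.3 to 89.9 CPM in A4 and from 56.3 to 86.5 CPM in B212, a log2 fold change of 0.39 ± 0.087 (SE; adjusted p = 0.00927). The E2 libraries of ALPPL2 were the 2 highest, whereas the A4 DMSO level of ALPP was above its B212 E2 level, so that the rise of ALPP stands within each tag. ALPP and ALPPL2 are near-identical copies on chromosome 2, so how the counting divided reads between them is uncertain. ALPL, the tissue-nonspecific form, was at 0.819 and 0.536 CPM in A4 and 0.328 and 0.164 CPM in B212 and did not pass the test (adjusted p = 0.163). None of its 3 promoter windows held the half-site.

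The libraries held 73872033 counts (A4 DMSO), 85222856 (A4 E2), 83463529 (B212 DMSO) and 71575816 (B212 E2), with 18358 to 18861 genes detected. All 11 epithelial markers had at least 100 counts in each library, with a summed level of 2550 and 2460 CPM in A4 and 3220 and 2950 CPM in B212 (DMSO, then E2). Of 19 stromal, endothelial and immune markers, 2 reached 100 counts in each library, 6 had at most 10 counts, and PECAM1 and CD3E were at 0 throughout. Their summed level was 138 and 101 CPM in A4 and 54.9 and 45.6 CPM in B212. In bulk libraries, fewer cells of a type and less RNA per cell cannot be told apart. ESR1 itself, whose level checks that the receptor gene is expressed, was at 110 and 97.0 CPM in A4 and at 107 and 86.5 CPM in B212. It was lower with E2 in both tags, with a log2 fold change of -0.25 ± 0.07 (SE; adjusted p = 0.033), a call that was lost in a fit with trends on transcript length and GC content removed (adjusted p = 0.108), with DESeq2 (0.0856) and with DESeq2's size factors in edgeR (0.0565).

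Of 15599 genes tested, 1492 passed an adjusted p of 0.05, which is 9.56% of them. With E2, 956 were higher (6.13%) and 536 lower (3.44%). Scaled by library size alone, the split was 911 higher and 775 lower. With at least 100 counts in every library, 1398 remained, of which 1 moved in opposite directions in the tags. This was RPS26, a ribosomal protein gene named after its values were seen, with log2 fold changes of -1.19 in A4 and 0.014 in B212. The other 1397 were 887 higher and 510 lower genes, with median log2 fold changes of 0.33 and -0.29. Changes of at least 1 on the log2 scale were found in 7 higher genes and 1 lower gene, and of at least 0.5 in 92 and 30. On the classical list of estrogen targets were 13 of these genes, so 1384 lay beyond it. Past the threshold or not, 8853 of the 11928 genes with 100 counts moved one way in both tags (74.2%), 4038 up and 4815 down.

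**Figure D1:**
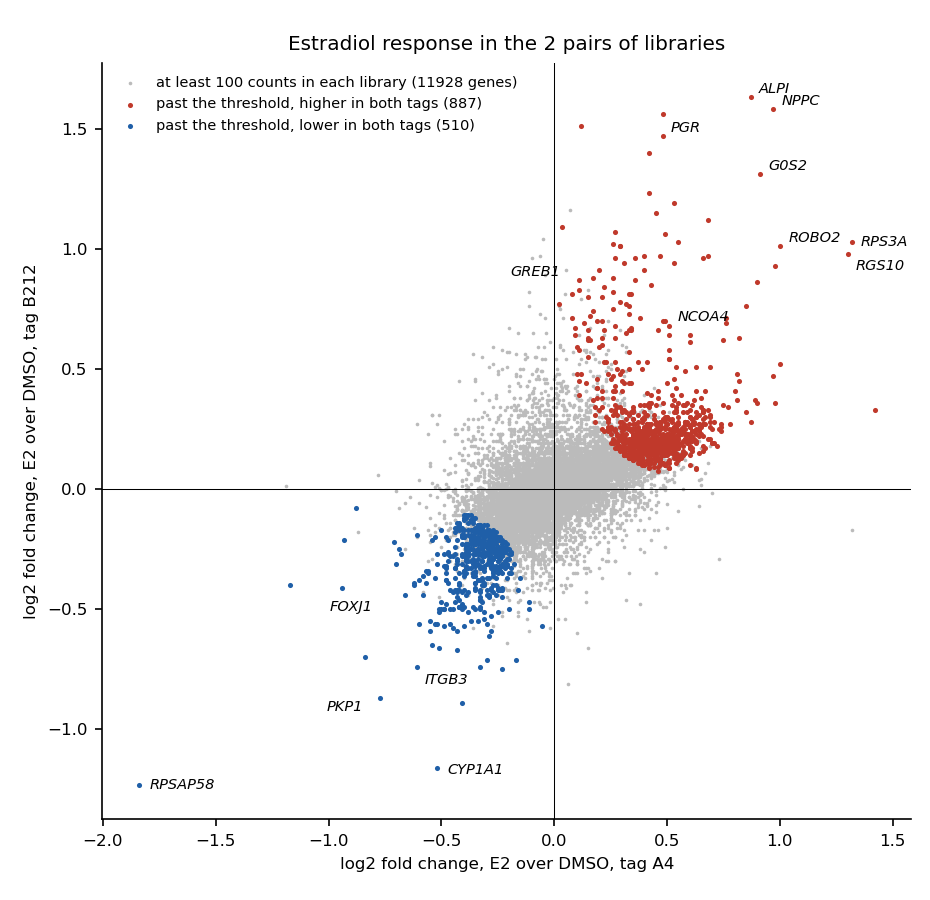
Log2 fold change of E2 over DMSO in tag A4 (horizontal) against tag B212 (vertical), 1 point per gene with at least 100 counts in each library. Red points are the 887 genes past the threshold and higher in both tags, blue points the 510 lower in both, and grey points all other genes; ALPI, NPPC and G0S2 lie at the upper right and RPSAP58 at the lower left.

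Just inside the minimum of 100 counts were TEX19, with a lowest count of 103 and a log2 fold change of 0.77, and CHST3, with 108 and -0.5. Just outside were SNORA40, with 98 and 0.86, and LYG1, with 97 and 0.64. These genes are named for their counts alone.

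The transcripts that moved up and down differed in length and base composition. Over the genes with a GENCODE 29 transcript, called higher genes had a median length of 2109 bases and 42.9% GC (875 genes). Called lower genes had 5142 bases and 56.3% GC (508 genes), and genes not called had 3566 bases and 48.1% GC (10377 genes). In the shortest quintile of genes, with a median length of 1504 bases, 424 were called higher and 21 lower. In the longest quintile, with a median of 7686 bases, 64 were called higher and 201 lower. The median log2 fold change went from 0.14 in the shortest to -0.088 in the longest quintile in A4, and from 0.053 to -0.041 in B212. Both tags leaned the same way, A4 more. A fit with the trend on length and GC content removed from each library called 390 higher (2.59%) and 243 lower (1.61%) of 15065 genes. Of the 1397 genes, 299 higher and 160 lower stayed past the threshold in it with the same sign, and 12 changed sign. What gives rise to this trend was not tested, and values of the trend-removed fit are given with the families below.

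**Figure D2:**
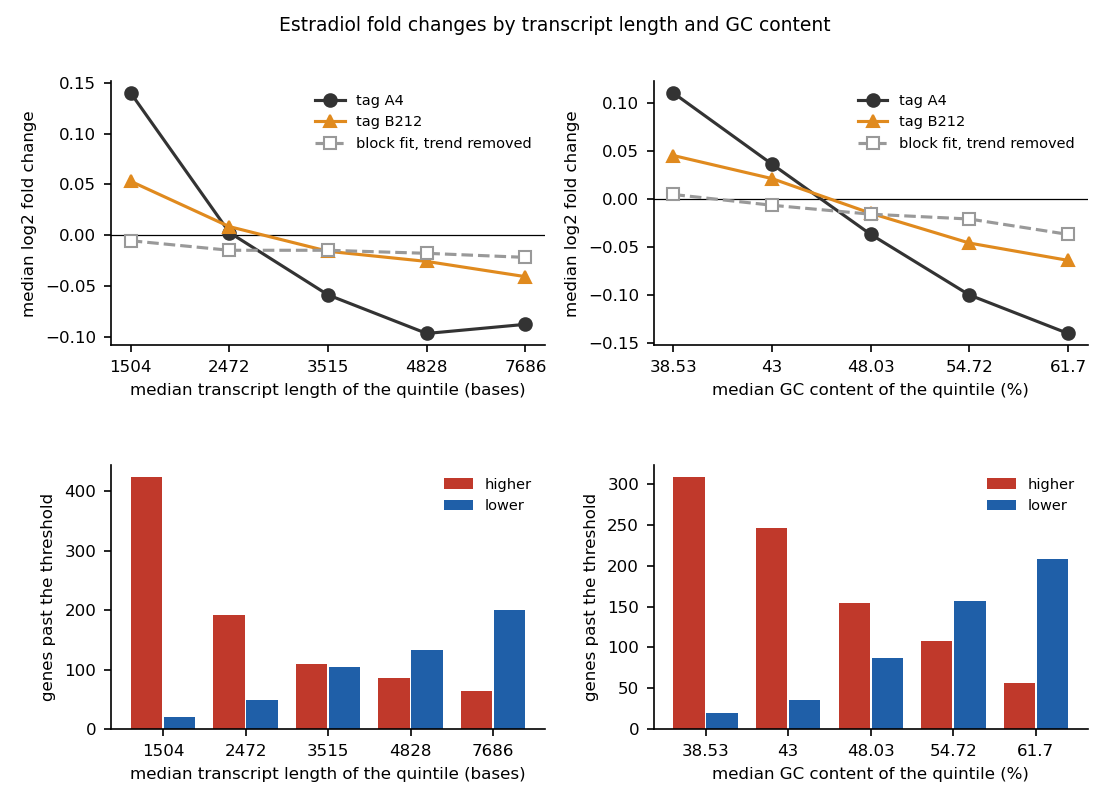
Upper panels: median log2 fold change of E2 over DMSO in quintiles of the genes by transcript length (left, in bases) and GC content (right, in percent), for each tag and for the fit with the trend removed. Lower panels: number of genes past the threshold in each quintile; the higher genes fall from 424 to 64 and the lower genes rise from 21 to 201 from the shortest to the longest quintile.

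Beyond the classical targets, 14 genes in each direction led the ranking by the smaller of the 2 tags' changes. Among the higher genes were signalling molecules. NPPC encodes C-type natriuretic peptide, a secreted ligand of a guanylyl cyclase receptor. It rose from 5.5 to 10.8 CPM in A4 and from 3.49 to 10.5 CPM in B212, so that both E2 libraries lay above both DMSO libraries. The log2 fold change was 1.27 ± 0.13 (SE; adjusted p = 1.25e-05). RGS10 encodes a protein that speeds the return of G protein alpha subunits to their inactive state. It rose from 3.32 to 8.22 CPM in A4 and from 17.1 to 33.8 CPM in B212, by 1.11 ± 0.1 (SE) on the log2 scale (adjusted p = 2.17e-06). The B212 DMSO library was above the A4 E2 library, so the rise stands within each tag. Of 15 measured genes with an RGS symbol, the binding proteins RGS7BP and RGS9BP included, RGS10 was the one that passed the test. That share, 6.67%, is near the 6.13% of all genes that were called higher.

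ROBO2, a receptor for SLIT guidance cues, rose from 2.83 to 5.67 CPM in A4 and from 2.77 to 5.59 CPM in B212. Its log2 fold changes, 1.0 and 1.01, differed least between the tags among the 14 higher genes. GAB3, a docking protein downstream of growth factor receptors, rose from 2.57 to 4.13 CPM in A4 and from 1.52 to 3.34 CPM in B212. MSMB, a small secreted protein best known from prostate fluid, rose from 5.37 to 10.0 CPM and from 4.34 to 7.87 CPM. In ROBO2, GAB3 and MSMB, as in NPPC, the E2 and DMSO libraries did not overlap. The leading genes were ranked by their change in both tags, and the share of all genes without such overlap was not counted. Here and below, a lack of overlap is thus a description only.

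A further set of leading genes acts in metabolism. G0S2 encodes an inhibitor of adipose triglyceride lipase, the enzyme that starts the breakdown of stored fat. It rose from 27.7 to 52.2 CPM in A4 and from 13.2 to 32.9 CPM in B212, by 1.1 ± 0.093 (SE) on the log2 scale (adjusted p = 6.74e-07), and the E2 libraries were the 2 highest. DHRS3 encodes a reductase that turns retinaldehyde back into retinol. It rose from 48.6 to 87.6 CPM in A4 and from 87.8 to 149 CPM in B212, by 0.8 ± 0.07 (SE; adjusted p = 1.07e-06). Its A4 E2 library and its B212 DMSO library were at nearly the same level. ALPI, described above, completes this set.

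The other leading higher genes belong to the translation machinery or are noncoding. RPS3A, a protein of the small ribosomal subunit, rose from 122 to 304 CPM in A4 and from 182 to 372 CPM in B212, by 1.17 ± 0.077 (SE; adjusted p = 1.74e-08). RPL41, the smallest protein of the large subunit, rose from 16.2 to 27.5 CPM and from 17.4 to 28.4 CPM, by 0.73 ± 0.085 (SE; adjusted p = 4.89e-05). In both genes the E2 libraries were above the DMSO libraries. Ribosomal protein genes have many processed copies, and reads shared with copies could have been counted at either. SNORD76 and SNORD79 lie in introns of GAS5, and SNORD22 lies in an intron of SNHG1. Their block log2 fold changes were 0.96, 0.81 and 0.83, at levels from 1.73 to 6.9 CPM. They are short and lie inside other genes, so their counts may hold reads of their hosts. CARD8-AS1, antisense to CARD8, was at 1.53 and 2.61 CPM in A4 and at 1.32 and 2.16 CPM in B212. The strand setting of the counting is not given in the sources used here, so reads of the 2 strands may not be told apart.

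**Figure D3:**
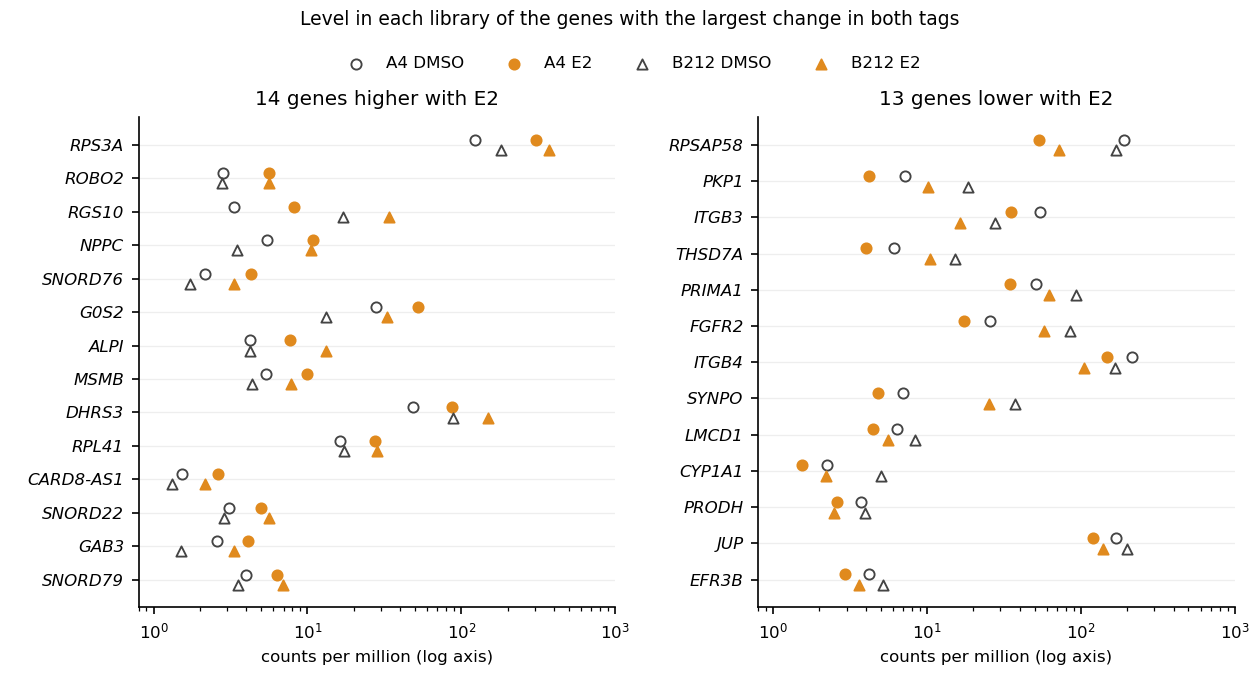
Level in CPM (log axis) in each of the 4 libraries for the 14 higher (left) and 13 of the 14 lower (right) genes with the largest change in both tags, ordered by the smaller of the tags' changes. Circles are tag A4, triangles tag B212, open symbols DMSO and filled symbols E2; within each tag the E2 symbol lies to the right of DMSO in the left panel and to the left of it in the right panel.

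Among the leading lower genes, those of cell adhesion were the most numerous. PKP1, the desmosomal plaque protein plakophilin 1, fell from 7.17 to 4.19 CPM in A4 and from 18.6 to 10.2 CPM in B212, with a log2 fold change of -0.83 ± 0.11 (SE; adjusted p = 0.000153). JUP, or plakoglobin, links desmosomal and classical cadherins to the cytoskeleton. It fell from 169 to 119 CPM in A4 and from 198 to 140 CPM in B212, by the same -0.51 on the log2 scale in each tag (adjusted p = 0.000279), and both DMSO libraries were above both E2 libraries. ITGB4, the integrin subunit of hemidesmosomes, fell from 215 to 147 CPM and from 166 to 105 CPM, with a log2 fold change of -0.6 ± 0.07 (SE; adjusted p = 5.24e-05). ITGB3, the integrin beta 3 subunit that binds vitronectin with alpha V, fell from 54.0 to 35.4 CPM in A4 and from 27.6 to 16.5 CPM in B212. Its log2 fold change was -0.67 ± 0.081 (SE; adjusted p = 7.45e-05), and the DMSO level in B212 was below the E2 level in A4. SYNPO, an actin-binding protein, fell from 6.96 to 4.83 CPM and from 37.5 to 25.4 CPM.

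PKP1, JUP and ITGB4 led to a look at the other genes of these junctions, drawn up as a list after the values were seen and so a description only. Of 16 desmosome and hemidesmosome genes, 6 fell past the threshold, and the trend-removed fit called 4 lower. The added members were PPL (periplakin, log2 fold change -0.44 ± 0.074, adjusted p = 0.00145), PLEC (plectin, -0.36 ± 0.076, adjusted p = 0.00675) and DSP (desmoplakin, -0.29 ± 0.071, adjusted p = 0.0151), errors being SE. The desmosomal cadherins DSG2 and DSC2 did not pass the test (adjusted p = 0.906 and 0.181), nor did ITGA6, the partner of ITGB4, at 281 and 278 CPM in A4 and 171 and 206 CPM in B212.

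Receptors and membrane proteins made up a second set of leading lower genes. FGFR2, an epithelial receptor of fibroblast growth factors, fell from 25.6 to 17.4 CPM in A4 and from 84.5 to 57.8 CPM in B212. The change was -0.55 on the log2 scale in each tag (SE of the block fit 0.077, adjusted p = 0.000366), although its level in B212 was far above that in A4. PRIMA1, which anchors acetylcholinesterase in membranes, fell from 50.9 to 34.8 CPM and from 93.4 to 61.9 CPM. THSD7A, a membrane protein with thrombospondin repeats, and EFR3B, a membrane anchor of a phosphatidylinositol kinase, had block log2 fold changes of -0.58 and -0.51. LMCD1, a LIM domain protein, had -0.54.

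Enzymes of this set were CYP1A1 and PRODH. CYP1A1, the aryl hydrocarbon receptor target that oxidises estradiol and xenobiotics, fell from 2.23 to 1.55 CPM in A4 and from 5.01 to 2.22 CPM in B212, by -0.88 ± 0.17 (SE; adjusted p = 0.00458). PRODH, which starts the breakdown of proline, fell from 3.71 to 2.6 CPM and from 3.93 to 2.47 CPM. RPSAP58, a processed copy of the ribosomal protein gene RPSA, had the largest fall of the 28 genes, from 190 to 53.2 CPM in A4 and from 170 to 72.4 CPM in B212 (log2 fold change -1.53 ± 0.1, SE; adjusted p = 1.74e-08). RPSA itself went the other way, from 306 to 615 CPM and from 377 to 539 CPM. Since copy and parent share sequence, how reads were divided between them is uncertain.

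All 28 leading genes had the same sign and stayed past the threshold in limma-voom and under both other scalings, and DESeq2 called 12 and gave the other 16 no adjusted p. With the length and GC trend taken out, 23 of the 26 with a transcript length stayed past it, and CARD8-AS1, SNORD22 and EFR3B did not (adjusted p = 0.0854, 0.0653 and 0.12). In the promoter windows, 10 of the 14 higher genes had an entry, and RPS3A, ALPI, DHRS3 and GAB3 held a half-site. Of the lower genes 10 of 14 had an entry, and FGFR2 and EFR3B held one. No window of either set held the full repeat. A gene was counted when any of its windows held a half-site, so these counts cannot be set beside the 13.8% of single windows. The share of all genes with a half-site was not counted.

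Of the 61 lists examined, those of basement membrane and other matrix genes, of Notch genes and of integrins had the highest shares of lower genes. The desmosome and hemidesmosome list (6 of 16, 37.5%), drawn up after the values were seen, is left out of this ranking. Notch signalling passes between neighbouring cells when a ligand such as JAG1 releases the inner part of a receptor, which then switches on HES and HEY genes. Of 27 tested Notch pathway genes, 9 fell (33.3%, beside 3.44% of all genes), and the list had a median log2 fold change of -0.22, beside -0.0081 for all genes tested. The ligand JAG1 fell from 125 to 90.9 CPM in A4 and from 159 to 112 CPM in B212 (log2 fold change -0.48 ± 0.069, SE; adjusted p = 0.000503). The receptor NOTCH3 fell from 51.6 to 32.6 CPM and from 87.1 to 64.4 CPM (-0.55 ± 0.078, SE; adjusted p = 0.000442). JAG1 had both E2 libraries below both DMSO libraries, and NOTCH3 did not, since its levels in B212 were higher throughout.

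Further down the same pathway, NRARP, a feedback inhibitor that is itself a Notch target, fell from 53.6 to 38.2 CPM in A4 and from 37.2 to 25.1 CPM in B212 (log2 fold change -0.53 ± 0.078, SE; adjusted p = 0.000653). The target HES1 went from 62.3 to 59.9 CPM in A4 and from 78.4 to 52.8 CPM in B212, so that its call came mostly from B212 (adjusted p = 0.038). The receptor NOTCH1, the protease ADAM10, the target HEYL and the coactivators MAML1 and MAML2 fell by smaller amounts, with log2 fold changes between -0.43 and -0.22. The ligand DLL1, the modifier LFNG and the targets HEY1, HEY2 and HES4 did not pass the test. HEY1 was higher in both tags, with a log2 fold change of 0.16 in each (adjusted p = 0.447). HES4 and HEY2 had block log2 fold changes of -0.053 and -0.36 (adjusted p = 0.852 and 0.352), so the HES and HEY genes did not fall as a set. In the trend-removed fit the median was -0.1 and 5 members were called lower, namely JAG1, NOTCH3, NRARP, ADAM10 and HES1. These transcripts have a median of 59.1% GC.

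Basement membranes are sheets of laminin, collagen IV, nidogen and perlecan on which epithelia rest, and integrins tie the cell to them. Of 23 genes for laminins and other basement membrane and matrix proteins, 11 fell (47.8%), with a list median of -0.23. The laminin chain LAMA3 fell from 55.9 to 41.7 CPM in A4 and from 36.2 to 25.7 CPM in B212 (log2 fold change -0.46 ± 0.078, SE; adjusted p = 0.00164). TNC, or tenascin C, fell from 1450 to 1150 CPM and from 1950 to 1460 CPM (adjusted p = 0.00508). FN1, or fibronectin, fell from 54.9 to 44.9 CPM and from 55.5 to 40.5 CPM (adjusted p = 0.00624). In FN1 the E2 libraries did not overlap with DMSO, and in TNC they did, by a small margin between A4 DMSO and B212 E2. Also called lower were HSPG2, AGRN, LAMB1, LAMA5, NID1, LTBP3 and LTBP4, with log2 fold changes from -0.34 to -0.29. Transcripts of this list are long, with a median of 6547 bases, and in the trend-removed fit LAMA3 was the 1 member still called and the median was -0.12.

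Collagens gave 5 lower and 2 higher genes of 31 tested (median -0.21). COL1A1 fell from 128 to 92.4 CPM in A4 and from 42.4 to 34.5 CPM in B212, and the basement membrane chain COL4A2 fell from 29.1 to 21.7 CPM and from 8.44 to 6.6 CPM. COL7A1, of anchoring fibrils, rose, mostly in B212, at 5.39 and 5.69 CPM in A4 and at 7.07 and 12.4 CPM in B212 (adjusted p = 0.0383). With the trend removed, 2 collagens were called higher, and all 5 lower calls were lost (adjusted p = 0.058 for COL1A1 and 0.18 for COL4A2). COL1A1 and VWF, both called lower, are also on the list of stromal, endothelial and immune markers. In A4, COL1A1 alone stood at 128 and 92.4 CPM beside that list's summed 138 and 101 CPM. In B212 it stood at 42.4 and 34.5 CPM beside 54.9 and 45.6 CPM. Every library came from a clone of the Ishikawa line, and the part of other cells in these values was not tested.

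Integrins gave 5 lower genes and 1 higher gene of 21 tested (median -0.088, and -0.083 with the trend removed). Besides ITGB3 and ITGB4, ITGA3 fell from 63.2 to 48.4 CPM in A4 and from 43.0 to 31.7 CPM in B212, ITGB8 fell from 101 to 78.6 CPM and from 296 to 239 CPM, and ITGB5 had a log2 fold change of -0.24. ITGA3 and ITGB8 are a laminin receptor subunit and a subunit that activates latent TGF-beta. ITGAE, known from lymphocytes within epithelia, rose from 21.2 to 31.7 CPM and from 18.1 to 23.1 CPM (log2 fold change 0.47 ± 0.087, SE; adjusted p = 0.00321). Of these, ITGB3, ITGB4, ITGA3, ITGB8 and ITGAE stayed past the threshold with the trend removed.

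**Figure D4:**
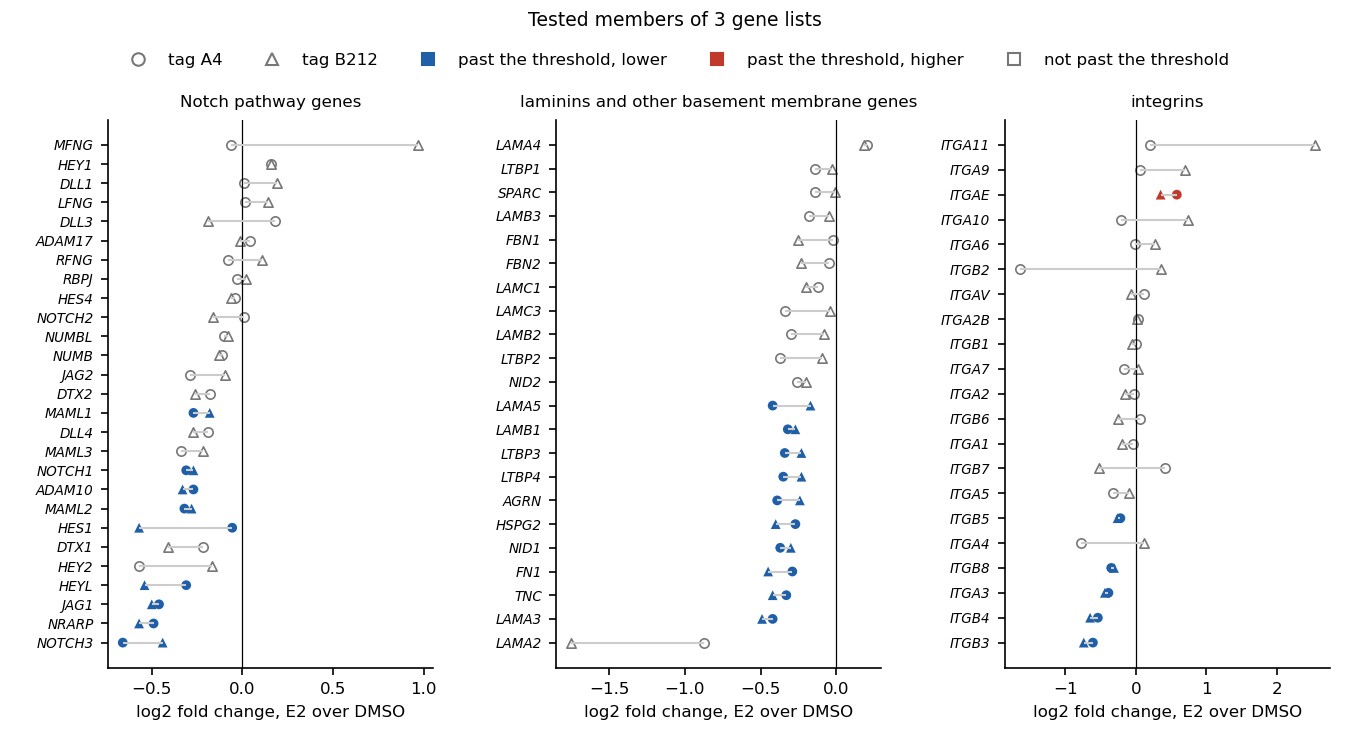
Log2 fold change of E2 over DMSO in tag A4 (circles) and tag B212 (triangles) for the tested members of 3 lists (of the basement membrane and other matrix genes, 22 of 23), sorted by the fit with the tag as block. Blue members fell and red members rose past the threshold, and open symbols did not pass it. Blue are 9 of 27 Notch pathway genes, 10 of the 22 basement membrane and other matrix genes shown and 5 of 21 integrins.

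Proteins that remodel the matrix moved both ways. Of 35 proteases and inhibitors, 7 fell and 2 rose (median -0.13). PLAT, tissue plasminogen activator, rose from 30.8 to 36.9 CPM in A4 and from 41.8 to 70.0 CPM in B212 (log2 fold change 0.51 ± 0.094, SE; adjusted p = 0.00307). MMP17, a membrane-anchored metalloproteinase, rose from 59.6 to 69.4 CPM and from 37.6 to 67.2 CPM (adjusted p = 0.00419). Both rose more in B212. The inhibitor TIMP2 fell from 137 to 113 CPM and from 150 to 124 CPM (adjusted p = 0.0151), and ADAMTSL3, ADAMTS18 and ADAMTS7 had log2 fold changes of -0.36, -0.36 and -0.43. The trend-removed fit kept PLAT, MMP17, ADAMTSL3 and ADAMTS5 past the threshold.

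Guidance cues and their receptors, which steer axons and also epithelial cells, gave 7 lower genes and 1 higher gene of 40 tested (median -0.16, and -0.05 with the trend removed). ROBO2 was the gene that rose. Its ligand SLIT2 fell from 287 to 228 CPM in A4 and from 218 to 159 CPM in B212 (log2 fold change -0.39 ± 0.071, SE; adjusted p = 0.00241), and its A4 E2 library was slightly above its B212 DMSO library. PLXNB2, a semaphorin receptor, fell from 167 to 122 CPM and from 180 to 133 CPM (-0.44 ± 0.068, SE; adjusted p = 0.000963). SEMA4B and the netrin receptor UNC5B had log2 fold changes of -0.36 and -0.5. ROBO2, SLIT2, PLXNB2 and SEMA4B stayed past the threshold with the trend removed, and UNC5B did not (adjusted p = 0.129).

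Secreted growth factors and cytokines gave 6 lower genes and 1 higher gene, NPPC, of 34 tested (median -0.071). PDGFB, a ligand of platelet-derived growth factor receptors, fell from 79.9 to 58.3 CPM in A4 and from 33.1 to 23.4 CPM in B212 (log2 fold change -0.48 ± 0.076, SE; adjusted p = 0.00112). Its relative PDGFA fell from 68.5 to 52.6 CPM and from 38.7 to 32.0 CPM, and FGF18 fell from 86.8 to 66.7 CPM and from 126 to 106 CPM. TGFB2 fell from 19.1 to 15.6 CPM and from 35.0 to 25.8 CPM (adjusted p = 0.0116). These 4 stayed past the threshold with the trend removed, and TGFB1 did not (adjusted p = 0.116). In the TGF-beta and BMP pathway as a whole, 4 of 40 genes fell (median -0.099), TGFB2, LTBP3, SKI and TGFB1, of which TGFB2 alone was called in both fits.

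Other junction and cytoskeleton genes had smaller shares of lower genes. Claudins and tight junction genes gave 4 lower of 23 tested (17.4%; median -0.091, and -0.024 with the trend removed), 2 of which were called in both fits, among them CLDN1, which seals the space between epithelial cells and went from 220 to 176 CPM in A4 and from 123 to 93.3 CPM in B212 (adjusted p = 0.00419). Cadherins and protocadherins gave 3 lower of 70 tested (4.29%, near the 3.44% of all genes; median -0.14), CDH6, CELSR1 and PCDHGC4, of which CDH6 kept its call with the trend removed. Actins, tubulins and myosins gave 8 lower (14.3%) and 2 higher of 56 tested, and 2 lower and 0 higher with the trend removed. The nonmuscle myosin heavy chain MYH14 fell from 133 to 86.4 CPM and from 165 to 125 CPM (adjusted p = 0.000553), while the light chain MYL6 rose from 862 to 1240 CPM and from 1060 to 1200 CPM (adjusted p = 0.0128, and 0.0511 with the trend removed). Of 15 keratins 3 fell, KRT80, KRT5 and KRT18, and KRT10 rose, and all 4 kept their calls with the trend removed.

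After the 4 alkaline phosphatases, the highest shares of higher genes were in families that build mitochondria, ribosomes and the proteasome. In all, 144 of the 887 higher genes were on the lists of ribosomal proteins, mitochondrial ribosomal proteins, oxidative phosphorylation, proteasome, snoRNA hosts and spliceosomal particles. Oxidative phosphorylation is the chain of inner mitochondrial membrane complexes that makes ATP. Of 76 subunits tested, 48 rose (63.2%, beside 6.13% of all genes), with a list median of 0.3. The cytochrome oxidase subunit COX7B rose from 121 to 226 CPM in A4 and from 125 to 161 CPM in B212 (log2 fold change 0.63 ± 0.092, SE; adjusted p = 0.000553). The complex I subunit NDUFA11 rose from 156 to 247 CPM and from 158 to 198 CPM (adjusted p = 0.00121). The list median was 0.4 in A4 and 0.17 in B212. These transcripts have a median length of 1256 bases. With the trend removed, 13 were called higher, COX7B, NDUFA1, NDUFA11 and NDUFAB1 among them, and the list median was 0.13.

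Of 77 cytosolic ribosomal protein genes 36 rose (46.8%), with a list median of 0.24, which was 0.39 in A4 and 0.12 in B212. RPL9 rose from 182 to 322 CPM in A4 and from 218 to 338 CPM in B212 (log2 fold change 0.72 ± 0.073, SE; adjusted p = 8.53e-06), and its libraries did not overlap between groups. RPS26 was the 1 gene of the list that was called lower. With the trend removed 16 were called higher and 2 lower, and the median was 0.15. Of 75 mitochondrial ribosomal protein genes 28 rose (37.3%, list median 0.21), among them MRPS23, from 113 to 177 CPM and from 89.8 to 114 CPM (adjusted p = 0.000965). The trend-removed fit called 6 of them, with a median of 0.096. Both lists hold short transcripts, with median lengths of 1171 and 1547 bases.

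SnoRNA host genes are transcripts whose introns carry the small RNAs that guide the modification of ribosomal RNA. Of 27 tested, 10 rose (37.0%, list median 0.26), and 7 stayed called with the trend removed (median 0.13). GAS5 rose from 193 to 310 CPM in A4 and from 254 to 320 CPM in B212 (log2 fold change 0.51 ± 0.08, SE; adjusted p = 0.00109). SNHG1 rose from 127 to 181 CPM and from 132 to 162 CPM (adjusted p = 0.00276). In both hosts the E2 libraries were above the DMSO libraries, as in the snoRNA entries SNORD76, SNORD79 and SNORD22 counted within them. Of 11 genes annotated as snoRNAs with 100 counts in each library, 6 were among the higher genes, beside 7.44% of all genes with such counts. The libraries were poly(A)-selected, and whether these entries measure the small RNAs or reads of their hosts was not tested.

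Initiation and elongation factors of translation gave 9 higher genes and 1 lower gene of 55 tested (median 0.044), and 1 higher call was left with the trend removed. EIF4E2, a cap-binding protein, kept its call (143 to 192 CPM in A4 and 124 to 142 CPM in B212). The lower gene was the elongation factor EEF2, at 3610 and 2990 CPM in A4 and at 4240 and 3640 CPM in B212 (adjusted p = 0.0477). The proteasome, which degrades ubiquitin-tagged proteins, had 15 of 39 subunit genes higher (38.5%, list median 0.17), and 4 with the trend removed (median 0.058). PSMA4 rose from 313 to 434 CPM and from 243 to 291 CPM (adjusted p = 0.00547). Spliceosomal particle proteins gave 9 higher genes and 1 lower gene of 35 tested. SNRPG rose from 47.8 to 83.9 CPM and from 42.7 to 59.6 CPM (adjusted p = 0.000152), and the list median of 0.094 turned to -0.018 with the trend removed.

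Chaperones that fold receptors and other proteins gave 5 higher genes of 39 tested (median 0.11, and 0.062 with the trend removed). HSPA8, the constitutive heat shock cognate, rose from 3090 to 4520 CPM in A4 and from 2410 to 2960 CPM in B212 (log2 fold change 0.42 ± 0.082, SE; adjusted p = 0.00436). Its A4 DMSO library was above its B212 E2 library. HSPA8 and HSPH1 stayed past the threshold with the trend removed.

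**Figure D5:**
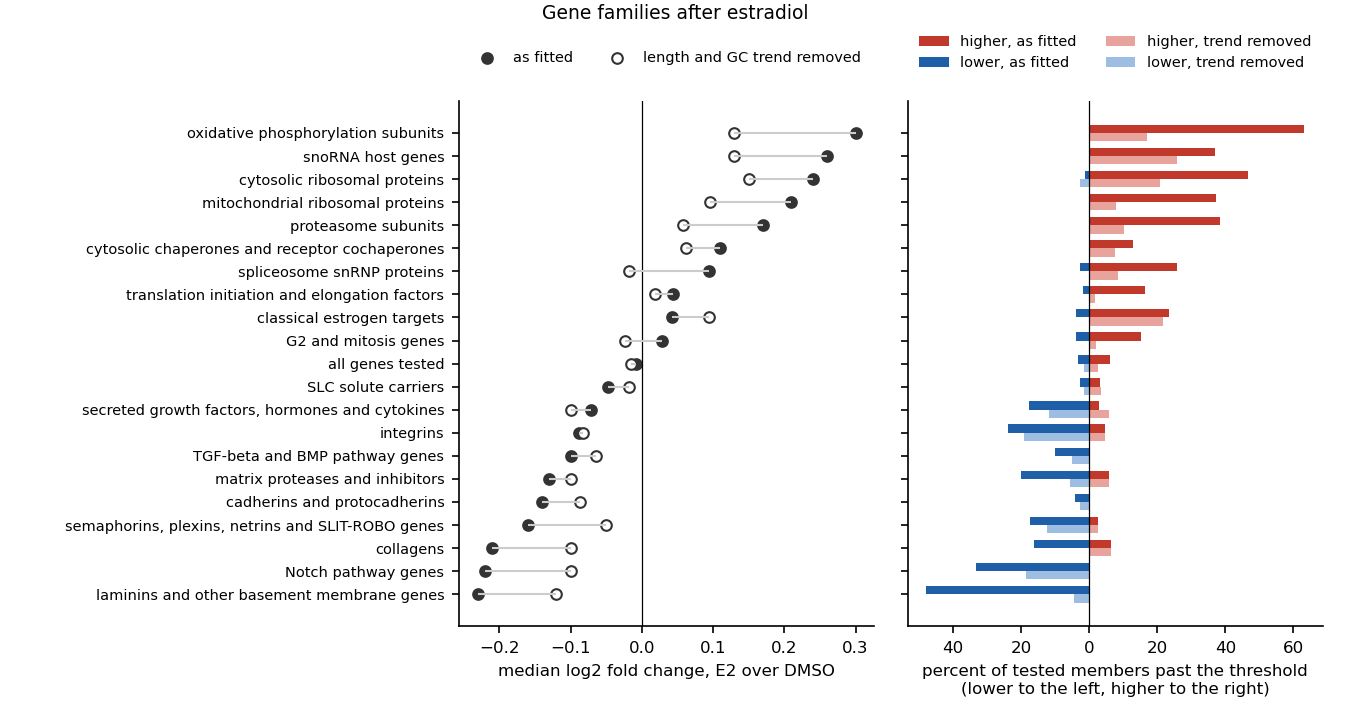
Left: median log2 fold change of E2 over DMSO of the tested members of 20 gene lists and of all genes tested, as fitted (filled) and in the trend-removed fit (open). Right: percent of the tested members past the threshold, lower to the left and higher to the right. Oxidative phosphorylation subunits reach 63.2% higher as fitted and basement membrane and other matrix genes 47.8% lower, and both shares are smaller with the trend removed.

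Solute carriers move ions and small molecules across membranes. Of 272 tested, 9 rose (3.31%) and 7 fell (2.57%), both under the shares of all genes (6.13% and 3.44%), and 6 and 2 were called in both fits (list median -0.047). SLC6A6, the taurine transporter, rose from 153 to 185 CPM in A4 and from 78.4 to 165 CPM in B212 (log2 fold change 0.67 ± 0.11, SE; adjusted p = 0.00174). SLC30A1, which exports zinc from the cell, rose from 57.6 to 72.9 CPM and from 36.9 to 58.9 CPM (0.5 ± 0.083, SE; adjusted p = 0.00141). SLC16A3, a lactate exporter, rose from 38.3 to 46.3 CPM and from 37.1 to 53.5 CPM, and SLC6A12, a carrier of betaine and GABA, from 41.9 to 47.3 CPM and from 19.4 to 35.7 CPM. All 4 had the larger log2 fold change in B212. Among lower carriers, SLC34A2, a phosphate transporter, fell from 454 to 371 CPM and from 876 to 717 CPM (adjusted p = 0.0162), and SLC6A20 and SLC44A2 had log2 fold changes of -0.44 and -0.24.

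Carbonic anhydrases, which interconvert carbon dioxide and bicarbonate, had 2 of 9 members higher. CA2 rose from 144 to 218 CPM in A4 and from 73.9 to 115 CPM in B212 (log2 fold change 0.62 ± 0.069, SE; adjusted p = 3.06e-05), by similar amounts in both tags. CA12, on the classical list, rose from 49.3 to 56.9 CPM and from 28.0 to 45.5 CPM (adjusted p = 0.00675), and both kept their calls with the trend removed. Of 18 lipid droplet genes, 2 rose, G0S2 and HILPDA (list median 0.083). HILPDA, like G0S2 an inhibitor of lipolysis, went from 16.5 to 23.1 CPM and from 18.0 to 20.3 CPM (adjusted p = 0.032), and of the 2 G0S2 kept its call with the trend removed (adjusted p = 0.131 for HILPDA). Of 54 potassium channel genes 1 passed the test (1.85%, under the 6.13% of all genes called higher). This was KCNJ1, known from transporting epithelia, which rose from 1.76 to 2.6 CPM and from 3.13 to 6.44 CPM (adjusted p = 0.00307). KCNJ1 also passed with the trend removed (0.00896). Of 42 genes of cholesterol and fatty acid synthesis 4 rose, among them MSMO1 and IDI1, and 3 fell, FASN, SREBF1 and FADS2. None of these 5 named genes kept its call with the trend removed (adjusted p from 0.0636 to 0.408), where 1 gene of the list was called.

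Uterine secreted and mucin genes gave 2 higher and 2 lower of 22 tested (list median -0.065). MUC5B, a gel-forming mucin, rose from 4.96 to 6.62 CPM in A4 and from 10.9 to 25.5 CPM in B212 (log2 fold change 0.88 ± 0.14, SE; adjusted p = 0.000979). SCGB2A1, a secretoglobin, rose from 3.39 to 5.41 CPM and from 9.24 to 12.3 CPM (adjusted p = 0.00865). On the list of endometrial transcription factors FOXJ1, the regulator of motile cilia in endometrial and other epithelia, fell from 6.95 to 3.62 CPM and from 18.9 to 14.2 CPM (-0.64 ± 0.12, SE; adjusted p = 0.00332). FOXJ1 and MUC5B stayed past the threshold with the trend removed, and SCGB2A1 did not (adjusted p = 0.175).

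Receptor cofactors and nuclear receptors changed in few members. NCOA4, which delivers ferritin for breakdown and was first described as a nuclear receptor coactivator, rose from 671 to 957 CPM in A4 and from 616 to 989 CPM in B212 (log2 fold change 0.6 ± 0.075, SE; adjusted p = 0.000141). NRIP1, a corepressor on the classical list, rose from 66.2 to 88.1 CPM and from 89.1 to 117 CPM (adjusted p = 0.00174). They were the 2 higher genes among 31 coactivators and corepressors (6.45%), and CARM1 fell (3.23%). These shares were near the 6.13% higher and 3.44% lower of all genes. NCOA4 and NRIP1 kept their calls with the trend removed, and CARM1 did not (adjusted p = 0.257). Of 36 nuclear receptors PGR rose (2.78%), and ESR1 and RARG, a retinoic acid receptor, fell (5.56%). PGR and RARG kept their calls there.

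Cell cycle genes moved little by their list medians, while the shares of higher genes in S phase and in mitosis were above the 6.13% of all genes. Of 49 S phase genes 5 rose (10.2%, list median 0.024), 1 of them called in both fits. Of 53 genes of G2 and mitosis 8 rose (15.1%) and 2 fell (3.77%, beside 3.44% of all genes). Their list median was 0.028, and -0.024 with the trend removed, where 1 call was left. MAD2L1, a spindle checkpoint protein, rose from 138 to 192 CPM in A4 and from 127 to 159 CPM in B212 (adjusted p = 0.00224) and stayed past the threshold with the trend removed. CDK1, the mitotic kinase, rose from 288 to 402 CPM and from 291 to 332 CPM (adjusted p = 0.0106), and its call was lost there (adjusted p = 0.23). CCND1, or cyclin D1, fell from 1340 to 1070 CPM and from 1320 to 1170 CPM (adjusted p = 0.0453). CCNE2, or cyclin E2, rose from 71.3 to 98.4 CPM and from 104 to 114 CPM (adjusted p = 0.0229). Neither cyclin kept its call with the trend removed (adjusted p = 0.134 and 0.128). In the BCL2 family of apoptosis regulators BMF and BCL2L1 fell and PMAIP1 rose, of 18 tested, and the call of PMAIP1 was lost with the trend removed (adjusted p = 0.405).

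In the remaining families at most 3 genes moved in either direction, zinc finger genes apart, so that 1 gene shifts a share by much. Zinc finger genes with a ZNF symbol gave 15 higher (3.13%) and 10 lower (2.09%) of 479 tested, both under the shares of all genes, and 4 in each direction with the trend removed. Shares above those of all genes came from small lists. Endometrial transcription factors gave 3 lower of 19 (15.8%), FOXJ1, PAX8 and KLF5, and 1 higher, EHF. FOXJ1 and KLF5 kept their calls with the trend removed. HOX genes gave 3 lower of 32 (9.38%), HOXD9, HOXB9 and HOXB8, and 2 with the trend removed. Ephrins and Eph receptors gave 2 lower of 21 (9.52%), EPHB2 and EPHB6, and none with the trend removed (adjusted p = 0.189 and 0.152). Kinesins gave 3 lower of 39 (7.69%), KIF26A, KIF26B and KIF13B, none of which stayed called there, and 1 higher. Hypoxia-induced genes gave 2 higher of 18 (11.1%), HILPDA and BNIP3, of which BNIP3 kept its call. The epithelial markers gave 1 lower of 11 (9.09%), KRT18, which kept its call.

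Other lists lay nearer to the shares of all genes or rested on 1 or 2 genes. WNT pathway genes gave 2 higher and 2 lower of 42, with the receptors FZD2 and FZD7 lower and the transcription factor TCF7 higher, and 2 and 1 with the trend removed. RAB GTPases gave 1 higher, RAB32, and 3 lower of 56 (5.36%), and 1 in each direction with the trend removed. SR proteins and hnRNPs gave 2 and 2 of 36, none of which kept its call. Chromatin regulators gave 2 higher and 3 lower of 92, and the 3 lower calls were lost. Long intergenic noncoding RNAs with a LINC symbol gave 2 and 2 of 184, and the 2 lower calls held. Ribosome biogenesis genes gave 3 higher and 1 lower of 59, and 2 higher with the trend removed. Stress response genes of the unfolded protein pathway gave 2 higher of 38, DNAJB9 and ASNS, and both kept their calls. Lists with 1 call that held with the trend removed were glycolysis genes (PGK1 higher, of 24), TRIM and F-box ubiquitin ligase genes (1 lower of 97), p53 targets (PLK2 lower, of 22) and estrogen synthesis and inactivation genes (CYP1A1 lower, of 18). Immediate early factors gave 1 and 1 of 28, and the higher call held. Calls were lost in MAPK feedback genes (1 lower of 16), aminoacyl tRNA synthetases (RARS2 higher, of 39), replication-dependent histone genes (1 higher of 25) and the G1 cyclins, kinases and inhibitors (CCNE2 higher and CCND1 lower, of 23). The 4 metallothioneins tested gave no call by edgeR, DESeq2 or limma-voom, and 0 had an unadjusted p under 0.05. Interferon-stimulated genes gave no call by edgeR among 24 tested (list median -0.049), where 1 had an unadjusted p under 0.05, and none by DESeq2 or limma-voom.

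The classical targets give the scale for these changes. Of 51 tested, 12 rose (23.5%) and 2 fell, with a list median of 0.043, and 0.094 with the trend removed. PGR stood at 51.6 and 72.1 CPM in A4 and at 5.62 and 15.6 CPM in B212, a log2 fold change of 0.48 and of 1.47 (block value 0.9 ± 0.14, SE; adjusted p = 0.000855). Its DMSO level in A4 was above its E2 level in B212. GREB1 stood at 119 and 129 CPM in A4 and at 51.8 and 94.5 CPM in B212, a log2 fold change of 0.11 and 0.87 (block value 0.48 ± 0.11, SE; adjusted p = 0.0102). DESeq2 called neither PGR nor GREB1 (adjusted p = 0.212 and 0.45). With DESeq2's size factors in edgeR, PGR kept its call (0.0244) and GREB1 did not (0.0582). Both kept their calls with the trend removed (0.00705 and 0.00436). MLPH, CA12, ALPP and ALPPL2 likewise had the larger value in B212, whereas NRIP1 had 0.41 and 0.4. With 1 pair in each tag, the difference between tags was not tested. Some genes beyond the list, RPS3A, NPPC, ALPI, RGS10 and G0S2, had larger block log2 fold changes than PGR. They are from the top of the ranking by change in both tags, so they do not stand for the other genes beyond the list. In B212 alone, PGR (1.47) was above RPS3A (1.03), RGS10 (0.98) and G0S2 (1.31) and below NPPC (1.58) and ALPI (1.63).

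The calls rest on the pairing by tag. With no block, edgeR called 0 genes, with 150 at an unadjusted p under 0.05, and no other tool was run without the block. The labels do not say whether the libraries are separate cultures, and a clone is the unit behind each pair. The edgeR test draws each gene's error in part from the other genes. Its SE and p-values are thus no direct measure of how far a gene's 2 pairs differ. GREB1, for one, had log2 fold changes of 0.11 (A4) and 0.87 (B212) beside an SE of 0.11. No clone beyond these 2 pairs is covered.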

How the data were processed

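The authors deposited raw counts, 1 whole number per gene symbol and library, and the library totals differ. Per the labels' protocols, stranded poly(A)-selected libraries were made from 500 ng of RNA each. The submitters' processing notes name HISAT2, SAMtools, featureCounts, DESeq2 and the build hg19, with no role or order; the annotation and strand setting are not given in the sources used here. Columns were placed in groups by the treatment in their names; another 4 columns match none of the samples and stayed out of every step. No label mentions the tags, so they could not be tied to the clone numbers of the labels.

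Genes were kept by filterByExpr (minimum count 10), scaled by TMM (trimmed mean of M values) and tested with edgeR 4.0.16 (R 4.3.3) by its quasi-likelihood test, with tag and treatment as terms, Benjamini-Hochberg adjustment over 15599 genes and a threshold of 0.05. The SE is the fold change divided by the root of its F value. Fold changes within a tag used a prior count of 2. The pairing comes from the column names, and same-tag libraries deviated together from their group means (Pearson r = 0.871 across genes, 1 independent value with 2 groups of 2). Alternatives were no block, DESeq2 size factors, library size alone, DESeq2 1.42.0, limma-voom (limma 3.58.1), other count filters, a threshold of 0.01, and removal of a smooth curve fitted to transcript length and GC content (mgcv 1.9.3, 1 GENCODE 29 transcript per symbol, found for 96.6% of the tested genes). The scripts were tested on simulated data. Figures used Python 3.11.15 with matplotlib 3.10.9.

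The members, the 61 gene lists and the comparison were chosen with earlier results of these data known. Named genes are ESR1, PGR and GREB1, the 14 higher and 14 lower genes with the largest value of the smaller of the tags' changes outside the classical list, and per list up to 4 called genes in each direction with the smallest p. Genes named otherwise, such as further called members of a list, were chosen after their values were seen. A few genes and 1 list are counted in totals but not reported by name here.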

Additional observations from a re-analysis of the deposited data

Results flagged for a closer look

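In 4 of the 25 gene lists whose medians are given, the median log2 fold change had opposite signs in the 2 tags. For lipid droplet genes the median was -0.15 (A4) and 0.088 (B212), which differ by 0.24. Uterine secreted and mucin genes had 0.0074 and -0.14, a difference (B212 minus A4) of -0.15. Interferon-stimulated genes had 0.034 and -0.01, a difference of -0.044, and S phase genes had -0.0093 and 0.00045, a difference of 0.0097. With 1 pair in each tag, none of these differences was tested.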

How the results depend on the processing

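The 1492 calls of the paired fit became 717 with DESeq2 size factors, 533 with DESeq2 (6654 genes had no adjusted p), 633 with the length and GC trend removed (498 of them shared with the 1492) and 415 at an adjusted p under 0.01. Library size alone, limma-voom, no filter, and a minimum of 100 counts in every library gave 1686, 1138, 1770 and 1876. With no replicate block edgeR called 0 genes (150 at an unadjusted p under 0.05), and with the trend removed and no replicate block 0 (49). The share of genes that moved one way in both tags was 74.2%, and 71.2% to 76.6% under other minimum counts or another prior count. Of the 215 named genes, EEF1E1 was the 1 that changed sign, to -0.0046 with the trend removed and no replicate block. Leaving out either library of a tag leaves the other tag's fold change as a value with no test, and a count of calls could not be had that way; nearly all named genes were chosen to move one way in both tags, so their sign there is fixed by the choice. The biological coefficient of variation was 5.993% with the block and 32.23% without it, and the cause of the changes in count was not tested. Genes under 100 counts in a library made up 94 of the calls and are not described.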
